A study of Mus musculus with 25 samples.

Results

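The 9 genes described here belong to the glucocorticoid response of white adipose tissue, and were chosen by name from a list drawn up with earlier results of these data known. They are *Zbtb16*, *Fkbp5*, *Tsc22d3*, *Nr3c1*, *Hsd11b1*, *Sgk1*, *Klf9*, *Mt1* and *Mt2*, 9 of the 54752 gene IDs in the count files. *Zbtb16* was listed because it was among the genes that diet lowered most in epididymal fat, so its values in that comparison are given as a description. Each of the 9 genes passed the filter on low counts in every fit, with between 509 and 25418 reads per library.

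Glucocorticoids act on fat cells through the glucocorticoid receptor, a ligand-activated transcription factor that binds DNA after release from a chaperone complex. The enzyme 11-beta-hydroxysteroid dehydrogenase type 1 regenerates the active hormone inside the cell, and in adipose tissue this local step is known to set how much ligand the receptor meets. Receptor target genes such as *Fkbp5* and *Tsc22d3* follow hormone exposure over hours and feed back on receptor and inflammatory signalling.

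The libraries were bulk RNA-seq of 2 fat depots from male mice on a C57BL/6N background, epididymal white adipose tissue (eWAT, 14 libraries) and inguinal white adipose tissue (iWAT, 11 libraries), with 1 library per mouse and depot. Wild type (WT) mice were fed normal diet (ND; 4 eWAT and 3 iWAT libraries) or high-fat diet (HFD; 5 eWAT and 5 iWAT libraries). *Acod1*-/- mice (KO), which carry a germline deletion of the enzyme that makes itaconate (C57BL/6N-Acod1em1(IMPC)J/J, littermates of the WT mice from heterozygous parents), were fed HFD only (5 eWAT and 3 iWAT libraries). HFD, in which fat gave 60% of the calories, began at 5 weeks of age and lasted 16 weeks, while the labels give 17 and 18 weeks for iWAT KO libraries 2 and 3. ND was fed for 16 weeks by the labels, which give no starting age for it. By the methods of the study both diets began at 5 weeks of age. Mice were housed singly, and the hour of collection and the feeding state at collection were not given in the sources used here, although both are known to move circulating hormone. There was no ND-fed KO group, so the genotype was compared on HFD alone.

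Each library held 31405063 to 52335623 reads on genes (median 42088309). By the prefix of their column headers the libraries form 2 sets, called here the first (14 libraries) and the second (11 libraries) sequencing series. That these sets stand for sequencing runs is inferred and was not tested. The second holds all 7 ND-fed libraries and 4 HFD-fed ones, library 5 of the WT mice in each depot, eWAT KO library 5 and iWAT KO library 3. Diet and series therefore nearly coincide. *Acod1* had 0 to 9 reads in each library, WT included, and could not check the genotype labels. The summed level of 8 adipocyte markers was between 17211 and 49043 CPM (counts scaled to the size of the library) in all libraries. Other tissues were present in some of them. Epididymal genes summed to 7690 CPM in eWAT ND library 2, B cell genes to between 412 and 637 CPM in the iWAT ND libraries against at most 42.6 CPM in any other iWAT library, and skeletal muscle genes to 7490 CPM in iWAT ND library 1. A list of 11 liver genes, added after the results were seen, summed to between 12.0 and 39.4 CPM in the ND-fed libraries and between 28.03 and 1407 CPM in the HFD-fed ones. Their part in the results below was not tested, and values without single libraries are given where they change a call.

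*Zbtb16* (ENSMUSG00000066687, chr9:48654297-48836222, minus strand) encodes PLZF, a zinc finger transcription factor induced by glucocorticoids in many cell types. Levels are CPM after TMM normalization over the 25 libraries, and positions are those of GENCODE vM21 on GRCm38. In ND-fed eWAT the 4 libraries had 164, 231, 278 and 289.6 CPM of *Zbtb16*. In HFD-fed WT eWAT the 5 libraries had 43.9, 30.9, 26.6, 13.2 and 24.2 CPM. In HFD-fed KO eWAT they had 47.9, 34.2, 64.7, 47.8 and 44.1 CPM. The HFD-fed WT libraries all lay below the ND-fed ones, and the WT and KO libraries on HFD overlapped.

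In iWAT, *Zbtb16* had 169.8, 166 and 179 CPM in the 3 ND-fed libraries, a spread of 6.50 CPM (SD). The 5 HFD-fed WT libraries had 86.4, 29.0, 47.5, 29.8 and 34.9 CPM. The 3 KO libraries had 44.2, 42.2 and 103 CPM. All ND-fed libraries again stood above all HFD-fed ones.

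Over both depots, the lowest of the 7 ND-fed libraries had 1.59 times the *Zbtb16* level of the highest of the 18 HFD-fed libraries. Ordered by mean, the groups were eWAT WT ND (241 ± 57.0 CPM, SD, n = 4), iWAT WT ND (172 ± 6.50, n = 3), iWAT KO HFD (63.2 ± 34.7, n = 3), eWAT KO HFD (47.7 ± 10.98, n = 5), iWAT WT HFD (45.5 ± 24.03, n = 5) and eWAT WT HFD (27.8 ± 11.1, n = 5). Neighbours in this order overlapped in their libraries, except at the step from iWAT WT ND to iWAT KO HFD.

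**Figure D1:**
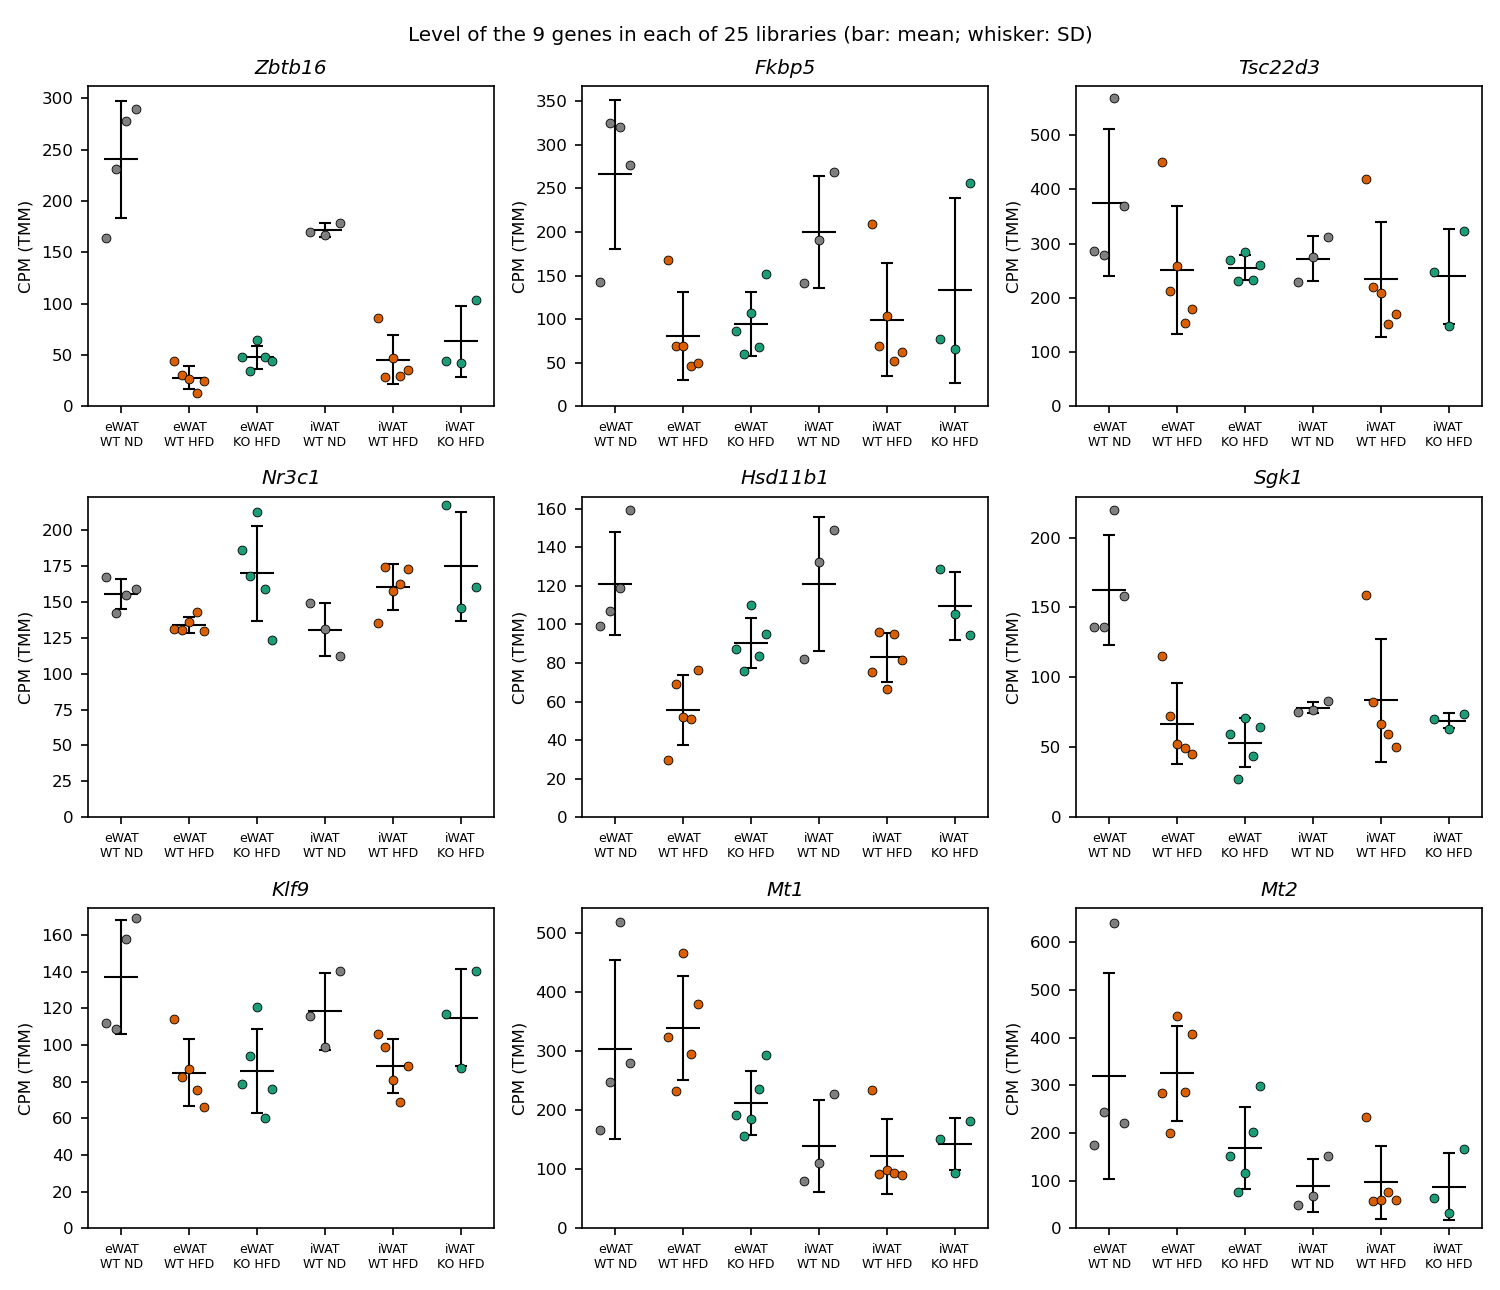
Level of each of the 9 genes (CPM, linear axes from 0) in the 25 libraries, with 1 point per library, the mean as a bar and the SD as a whisker; grey is WT ND, orange WT HFD and green KO HFD. The *Zbtb16* points of the ND-fed groups (164 CPM and above) sit apart from those of all HFD-fed groups (103 CPM and below), while the *Nr3c1* points stay between 112 and 218 CPM.

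The iWAT libraries were not used to choose *Zbtb16*, and there its fall with HFD was tested. Some may come from the mice whose eWAT chose the gene, so this test is not shown to be independent of that choice. Diet and series nearly coincide in iWAT too. *Zbtb16* fell by 1.89 ± 0.38 on the log2 scale (SE; HFD-fed WT against ND-fed WT, edgeR quasi-likelihood test, adjusted p = 0.0028), to 26.5% of the ND mean. Of the 9 genes, 2 were called at an adjusted p under 0.1, *Zbtb16* and *Hsd11b1*, both lower. Diet called 50.1% of all genes tested in iWAT and 24.2% as lower, so 2 of 9 lower is close to that background. Ranked by fitted change, *Zbtb16* was number 815 from the bottom of 14801 genes in iWAT. Only *Zbtb16* of the 9 had HFD-fed WT libraries all below the ND-fed ones, where 24% of all genes did.

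Its call held in each of 19 alternative fits, with adjusted p between 1.48e-06 and 0.0849. The highest of these came with sequencing series as a term, where the log2 fold change was -1.47. Library 5, the HFD-fed WT library that shares the series of the ND-fed ones, had 34.9 CPM. The ND-fed level was 169.8 CPM in the library with 7490 CPM of muscle genes and 166 CPM in the one with 7.23 CPM. All ND-fed iWAT libraries held more lymphocyte RNA than the HFD-fed WT ones. T cell markers summed to 266 to 426 CPM against 7.11 to 75.7 CPM, and B cell markers to 412 to 637 CPM against 2.76 to 42.6 CPM. Leaving out a single library does not remove this difference, and its part was not tested. Level per cell and number of cells cannot be told apart in bulk tissue, here and for every other gene.

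In eWAT the fitted log2 fold change of *Zbtb16* with HFD was -3.12 ± 0.29 (SE), an HFD-fed mean of 11.5% of the ND-fed mean. This comparison was the one that chose the gene, and no test is given. *Zbtb16* was number 364 from the bottom of 14936 genes there. Library 5 of the HFD-fed WT group, in the series of the ND-fed libraries, had 24.2 CPM.

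*Zbtb16* was 1.72 times as high in KO as in WT eWAT on HFD (log2 fold change 0.78 ± 0.27, SE), given with no test because these WT libraries chose the gene. Even so, KO eWAT was at 19.8% of the ND-fed WT mean, and none of the 5 KO libraries reached the ND range. In iWAT the genotype difference was 0.47 ± 0.39 (SE, adjusted p = 0.58), and leaving out single libraries moved it between -0.07 and 0.83.

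*Nr3c1* (ENSMUSG00000024431, chr18:39410545-39519421, minus strand) encodes the glucocorticoid receptor itself. Group means ran from 131 ± 18.4 CPM (SD, n = 3) in iWAT WT ND to 175 ± 38.02 CPM (n = 3) in iWAT KO HFD. In HFD-fed WT eWAT the 5 libraries had 131, 131, 136, 143 and 129 CPM. In KO eWAT they had 186, 168, 212, 159 and 123 CPM. All KO libraries but number 5 were above every WT library.

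*Nr3c1* was called higher in KO than in WT eWAT on HFD, by 0.34 ± 0.12 on the log2 scale (SE, adjusted p = 0.082). That call was kept in 8 of 23 alternative fits (adjusted p 0.00759 to 0.214) and was lost, for example, without KO library 3 (adjusted p = 0.202) and without WT library 1 (0.152). The direction was the same in all 23. With diet, the fitted change of *Nr3c1* was -0.22 ± 0.13 in eWAT, where no test is given, and 0.33 ± 0.15 in iWAT (adjusted p = 0.10).

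*Hsd11b1* (ENSMUSG00000016194, chr1:193221634-193264075, minus strand) encodes the enzyme that regenerates active glucocorticoid inside the cell. In eWAT it had 99.1, 107, 119 and 159.6 CPM in the ND-fed libraries. The HFD-fed WT libraries had 29.9, 68.9, 52.2, 51.2 and 76.6 CPM. In KO they had 87.1, 75.7, 110.3, 83.9 and 95.3 CPM. The HFD-fed WT libraries were all below the ND-fed ones, and KO libraries lay between these groups, overlapping both.

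*Hsd11b1* rose in KO against WT eWAT on HFD by 0.70 ± 0.21 on the log2 scale (SE, adjusted p = 0.050), a ratio of 1.62. Its call held in 21 of 23 alternative fits (adjusted p 0.0138 to 0.118), and was lost without WT library 4 (0.108) and without KO library 3 (0.118). In eWAT, diet gave a fitted log2 fold change of -1.12 ± 0.23, with no test. In iWAT *Hsd11b1* fell with HFD by 0.52 ± 0.19 (SE, adjusted p = 0.051). There the ND-fed libraries had 82.3, 133 and 149 CPM, the HFD-fed WT ones 75.6, 96.2, 66.3, 95.2 and 81.5 CPM and the KO ones 129, 106 and 94.4 CPM. The iWAT call was kept in 14 of 19 alternatives (adjusted p 0.00626 to 0.187), and was lost, among others, without ND library 2 (0.155), without ND library 3 (0.187) and once the series was added to the model (0.118). Genes overlapping *Hsd11b1* on the reference, *Lamb3* on the opposite strand among them, could have shared reads with it.

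In the eWAT genotype comparison, these 2 genes were the only ones called of the 8 tested, where 19.9% of all genes were called and 9.13% were called higher. The other 6 did not pass. With iWAT libraries the genotype comparison called none of the 9 genes (lowest adjusted p = 0.36) and none of the 14801 genes tested, 0%, although 2468 genes had an unadjusted p under 0.05 by edgeR. None of the 9 was among these, and DESeq2 also called none of the 9. The lowest adjusted p of any gene in this edgeR fit was 0.108, just above the threshold. The DESeq2 result over all genes is not given here. The study, with a different test, reports genes in iWAT that changed with loss of *Acod1* on HFD. The absence of edgeR calls therefore does not show that genotype had no effect in iWAT. The difference between the depots in the genotype effect called 0 of 8 members and 0.00665% of all genes, so the eWAT calls are not shown to be particular to that depot.

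**Figure D2:**
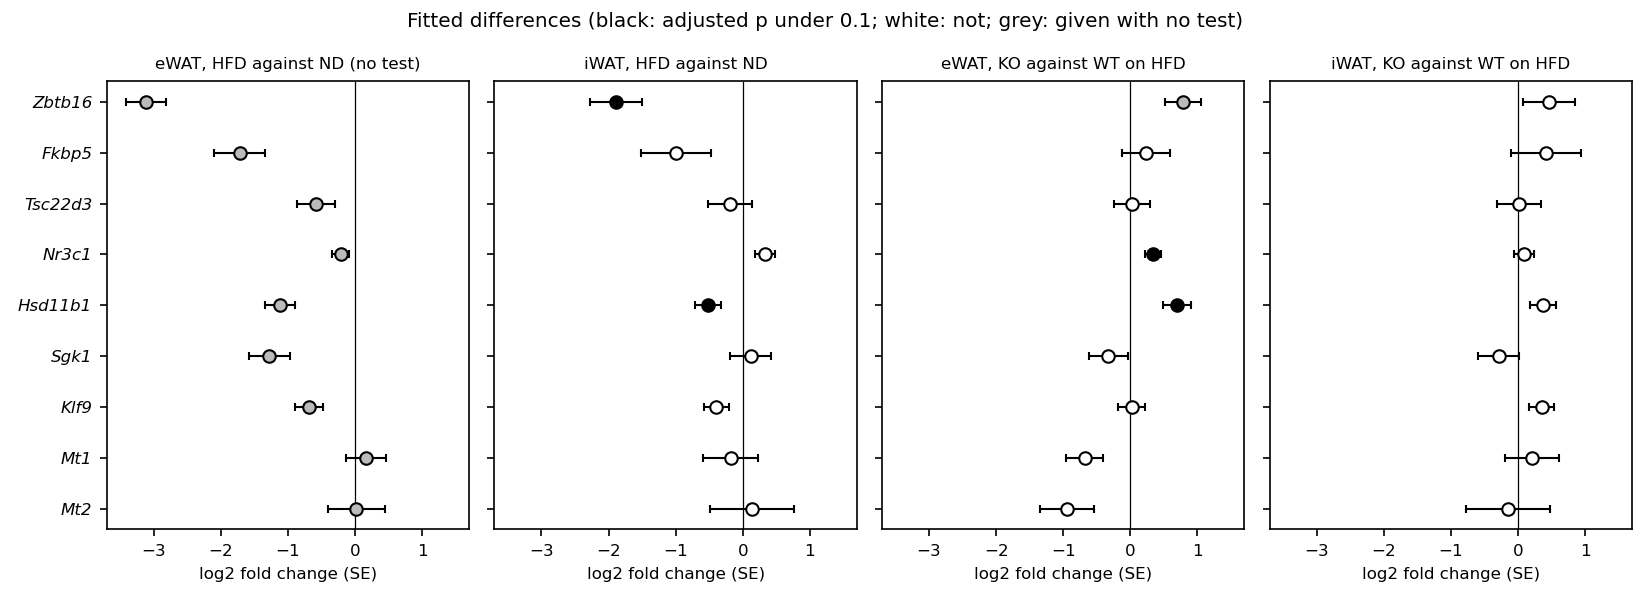
Fitted log2 fold change (x axis) with its SE as the bar for the 9 genes in 4 comparisons; black points passed an adjusted p under 0.1, white points did not, and grey points are given with no test. *Zbtb16* is the leftmost point in both diet panels (-3.12 in eWAT and -1.89 in iWAT), and the 2 black points in the eWAT genotype panel are *Nr3c1* at 0.34 and *Hsd11b1* at 0.70.

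*Fkbp5* (ENSMUSG00000024222, chr17:28399094-28517527, minus strand) encodes FKBP51, a co-chaperone that lowers the affinity of the receptor for its ligand and is itself induced by the receptor. The ND-fed eWAT libraries had 143, 325, 320.1 and 277 CPM. HFD-fed WT eWAT had 168, 69.7, 68.8, 46.7 and 50.1 CPM. KO eWAT had 86.2, 60.0, 107.5, 68.0 and 152 CPM. HFD-fed WT library 1 stood at 2.41 times the next library of its group and was the only one of that group to reach the ND range.

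The fitted log2 fold change of *Fkbp5* with HFD was -1.72 ± 0.39 (SE) in eWAT, where it is a description, and -0.99 ± 0.52 in iWAT, where it did not pass (adjusted p = 0.15). In iWAT the ND-fed libraries had 142, 190.3 and 268 CPM and the HFD-fed WT ones 209.6, 69.2, 103, 52.5 and 62.4 CPM. Library 1 again was the highest of its HFD-fed WT group. Without it the fitted change was -1.45 and passed (adjusted p = 0.030), while with sequencing series as a term it was -0.34 (0.78), so that 1 library and the series decide this result; over 19 alternatives adjusted p ran from 0.0305 to 0.777 and 3 passed. KO iWAT had 77.6, 65.3 and 256 CPM, and neither genotype comparison passed for *Fkbp5* (eWAT 0.23 ± 0.36, adjusted p = 0.71; iWAT 0.42 ± 0.53, adjusted p = 0.74).

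*Tsc22d3* (ENSMUSG00000031431, chrX:140539528-140600659, minus strand) encodes GILZ, an anti-inflammatory leucine zipper protein induced by glucocorticoids. Of the receptor targets other than the metallothioneins it was the most abundant per length in ND-fed eWAT, at 88.4 ± 27.2 FPKM (SD, n = 4) against 46.8 ± 8.95 for *Zbtb16*, 43.1 ± 7.19 for *Klf9*, 34.0 ± 6.54 for *Sgk1* and 29.0 ± 9.11 for *Fkbp5*. CPM of *Tsc22d3* was 285, 278, 568 and 369 in ND-fed eWAT and 450.1, 213, 259, 154 and 180.2 in HFD-fed WT eWAT. The groups overlapped, again through HFD-fed WT library 1. Its fitted diet change was -0.58 ± 0.28 (SE) in eWAT, with no test, and -0.19 ± 0.33 in iWAT (adjusted p = 0.66). Between genotypes *Tsc22d3* differed by 0.03 ± 0.27 in eWAT (adjusted p = 0.96) and 0.02 ± 0.33 in iWAT (adjusted p = 0.99).

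*Klf9* (ENSMUSG00000033863, chr19:23141226-23168134, plus strand) encodes a Krüppel-like transcription factor and is a direct receptor target in many tissues. Its fitted diet change was -0.69 ± 0.21 (SE) in eWAT, with no test, from 112, 109, 158 and 169 CPM in ND-fed to 114, 82.4, 86.7, 75.4 and 66.0 CPM in HFD-fed WT libraries. In iWAT the change was -0.39 ± 0.19 (adjusted p = 0.12), and 8 of 19 alternatives passed (adjusted p 0.0573 to 0.614). Neither genotype comparison passed for *Klf9* (eWAT 0.02 ± 0.20, iWAT 0.36 ± 0.19).

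*Sgk1* (ENSMUSG00000019970, chr10:21882184-21999903, plus strand) encodes a kinase under glucocorticoid and mineralocorticoid control that acts on ion transport. RefSeq promoters (GRCm38.p6) were found for 7 of the 9 genes, 14 promoters in all, and those of *Zbtb16* and *Nr3c1* were not among them. In the 250 bases before each start site, both strands were searched for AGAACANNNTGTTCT, the receptor palindrome, and for the single hexamer TGTTCT, which on one strand or the other makes up each arm of the palindrome. One *Sgk1* promoter on the plus strand, at chr10:21993640-21993889, held the palindrome, which 3 of 32817 promoters in the table (0.00914%) contained. It starts 189 bases before the start site, and the promoter holds another hexamer 242 bases before it. The hexamer alone was in 16.1% of promoters. It was also found in 2 of the other 5 promoters of *Sgk1* and in 1 of 3 *Tsc22d3* promoters, and neither motif was in the single promoters of *Fkbp5*, *Klf9*, *Hsd11b1*, *Mt1* and *Mt2*. The sequence is shown because it places the receptor motif of *Sgk1*, with the motif letters in capitals.
Sgk1: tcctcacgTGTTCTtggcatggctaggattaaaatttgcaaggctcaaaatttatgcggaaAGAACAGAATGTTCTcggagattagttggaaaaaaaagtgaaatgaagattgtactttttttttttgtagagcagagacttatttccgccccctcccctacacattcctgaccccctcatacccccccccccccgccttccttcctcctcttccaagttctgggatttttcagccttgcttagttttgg

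In eWAT *Sgk1* had 136, 136, 219 and 158 CPM in the ND-fed libraries. HFD-fed WT libraries had 115, 72.3, 52.7, 49.6 and 45.4 CPM. KO libraries had 59.6, 27.5, 71.3, 44.1 and 64.3 CPM. Neither HFD-fed group reached the ND range.

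In iWAT the picture differed. The ND-fed libraries had 75.2, 76.8 and 82.9 CPM of *Sgk1*. HFD-fed WT libraries had 159, 82.2, 66.6, 59.6 and 50.3 CPM, on both sides of the ND range. KO libraries had 70.3, 63.1 and 74.1 CPM, just below it. The fitted diet change was -1.28 ± 0.30 (SE) in eWAT, with no test, and 0.12 ± 0.31 in iWAT (adjusted p = 0.78), where the sign turned with sequencing series as a term (-0.16) and without HFD-fed WT library 1. The difference between depots in the diet change was -1.37 ± 0.47 for *Sgk1*, the lowest of the 9 genes, and -1.20 ± 0.50 for *Zbtb16*, both untested because the eWAT libraries chose the list. Between genotypes *Sgk1* differed by -0.33 ± 0.29 in eWAT (adjusted p = 0.48) and -0.29 ± 0.31 in iWAT (adjusted p = 0.69).

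Set side by side, diet in eWAT gave negative fitted changes for 7 of the 9 genes and positive ones for 2, with a median of -0.69 where the median of all genes was -0.04. Of all genes in eWAT, 51.8% were called with diet and 26.9% were called lower, and HFD-fed WT libraries lay below ND-fed ones without overlap in 17.9% of genes and in 3 members, *Zbtb16*, *Hsd11b1* and *Sgk1*. These counts include the comparison that chose the list and are given as a description. Against ND-fed WT, the KO libraries on HFD lay wholly below in 2 members in each depot, *Zbtb16* and *Sgk1* (9.21% of all genes in eWAT and 19% in iWAT). The eWAT diet and eWAT genotype comparisons share the HFD-fed WT libraries, so their opposite signs for *Zbtb16*, *Hsd11b1* and *Nr3c1* are not independent.

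*Mt1* and *Mt2* encode metallothioneins, small zinc-binding proteins induced by zinc through the factor MTF1 and by glucocorticoids. Their genes lie next to each other on chromosome 8, *Mt2* at chr8:94172664-94173568 and *Mt1* at chr8:94179082-94180327, both on the plus strand of GRCm38. The 250 bases before each start site were searched on both strands for the core of the MTF1 site, TGCACNC or TGCGCNC, which do not overlap each other here. In this window *Mt2* held 3 such cores, where 1.26% of promoters hold at least 3, and *Mt1* held 1, where 21.4% of promoters hold at least 1. The window follows the start site annotated for each gene, and cores outside it were not searched for. The counts therefore do not compare the whole promoters of the 2 genes. The 2 windows are shown with the cores in capitals, since these 2 genes varied together.
Mt2: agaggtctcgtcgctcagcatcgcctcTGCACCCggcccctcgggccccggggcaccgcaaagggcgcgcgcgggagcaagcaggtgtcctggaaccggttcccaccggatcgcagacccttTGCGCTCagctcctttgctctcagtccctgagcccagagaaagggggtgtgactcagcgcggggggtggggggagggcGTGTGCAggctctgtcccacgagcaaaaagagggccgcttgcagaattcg
Mt1: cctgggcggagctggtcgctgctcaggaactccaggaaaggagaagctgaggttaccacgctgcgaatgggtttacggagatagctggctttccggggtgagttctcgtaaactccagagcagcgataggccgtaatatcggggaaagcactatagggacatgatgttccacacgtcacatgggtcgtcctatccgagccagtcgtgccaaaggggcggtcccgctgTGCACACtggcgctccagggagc

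Per length, *Mt2* was the most abundant of the 9 genes in eWAT, at 554 ± 346 FPKM (SD, n = 4) in ND-fed and 552 ± 149 FPKM (n = 5) in HFD-fed WT libraries. Its place above *Mt1* rests on the cDNA lengths given, 588 bases for *Mt2* and 1246 for *Mt1*. In CPM the means of *Mt1* and *Mt2* were close, 303 and 320 in ND-fed and 340 and 325 in HFD-fed WT eWAT. *Mt2* CPM was 175, 244, 641 and 221 in ND-fed eWAT. It was 284, 200.5, 445, 286 and 407 in HFD-fed WT eWAT and 152, 76.0, 117, 201 and 298 in KO eWAT. KO libraries 1, 2 and 3 lay below every HFD-fed WT library, and KO libraries 4 and 5 lay within their range.

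*Mt1* in eWAT had 166, 247, 519.5 and 279 CPM in ND-fed libraries. HFD-fed WT libraries had 324, 233, 466, 296 and 379.9 CPM. KO libraries had 191, 156, 185, 236 and 294 CPM. Again KO libraries 1, 2 and 3 were below every HFD-fed WT library and the other 2 were not.

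Between genotypes in eWAT, *Mt1* differed by -0.68 ± 0.28 (SE, adjusted p = 0.12) and *Mt2* by -0.94 ± 0.40 (adjusted p = 0.13), and neither passed. In 9 of 23 alternatives *Mt1* passed, as did *Mt2* in 6 (adjusted p 0.0407 to 0.234 and 0.0383 to 0.257). Both passed among the libraries of the first sequencing series alone (*Mt1* -0.79, adjusted p = 0.041; *Mt2* -1.16, adjusted p = 0.038) and with DESeq2 (0.061 and 0.057). With diet, the changes were 0.16 ± 0.29 and 0.02 ± 0.42 in eWAT, with no test, and -0.18 ± 0.41 (adjusted p = 0.74) and 0.13 ± 0.62 (adjusted p = 0.88) in iWAT.

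Between depots the metallothioneins had higher group means in eWAT than in iWAT, but passed no test. On ND the eWAT mean of *Mt2* was 3.59 times that of iWAT and the libraries did not overlap (175 CPM and above against 152 and below). In 19% of all genes the ND-fed eWAT libraries lay wholly above the iWAT ones. Of the 9 genes *Sgk1* also did (2.07 times), while *Mt1* overlapped (2.17 times). On HFD in WT the eWAT mean of *Mt2* was 3.36 times that of iWAT, overlapping through iWAT library 1 at 233 CPM. These values are given with no test. In KO mice, where the depots were tested, *Mt2* differed by 0.95 ± 0.59 on the log2 scale (adjusted p = 0.51) and *Mt1* by 0.58 ± 0.39 (adjusted p = 0.55). None of the 9 genes passed between depots in KO mice, where 3.81% of all genes did.

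The libraries of a group were far from equal in these genes. In eWAT HFD-fed WT library 1 was the highest of its group in 5 of the 9 genes, and in iWAT HFD-fed WT library 1 was highest in 7 of 9. Library 3 was highest in 7 of 9 genes in iWAT KO, in 8 of 9 in iWAT ND and in 6 of 9 in eWAT KO. A number names a library and does not tie the depots of a mouse together in the labels.

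This spread was shared among the receptor targets, more closely in some than in others. After subtraction of group means from log2 CPM, *Fkbp5* and *Zbtb16* deviated together over the 25 libraries (Pearson r = 0.86, Spearman rho = 0.81, and r = 0.84 without the 2 libraries farthest from the median of *Zbtb16*). Within eWAT r was 0.75 and within iWAT 0.95, and it was 0.92 in the first and 0.78 in the second sequencing series. *Tsc22d3* went with *Fkbp5* (r = 0.82, rho = 0.77, 0.76 without the 2 farthest) and with *Zbtb16* (r = 0.80, rho = 0.75, 0.72). *Sgk1* also followed *Fkbp5* (r = 0.75, rho = 0.72, 0.73). *Klf9* followed *Fkbp5* less closely (r = 0.59, rho = 0.58, 0.52), as did *Mt2* (r = 0.65, rho = 0.55, 0.47), with r = 0.34 for *Mt2* within eWAT. *Mt1* and *Mt2* had r = 0.93 and rho = 0.93 (0.90 without the 2 farthest).

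By contrast, the receptor and the enzyme did not rise with *Fkbp5*. For *Nr3c1* r was -0.44 (rho = -0.43, -0.34 without the 2 farthest), and for *Hsd11b1* it was -0.24 (rho = -0.05, -0.19). For *Nr3c1* r was negative in each part: -0.34 in eWAT, -0.53 in iWAT, -0.21 in the first and -0.70 in the second series. For *Hsd11b1* these were -0.28, -0.21, -0.50 and 0.06. These values describe 25 libraries, some of which may come from the same mouse, and carry no test. They share library preparation and cell makeup within each library.

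**Figure D3:**
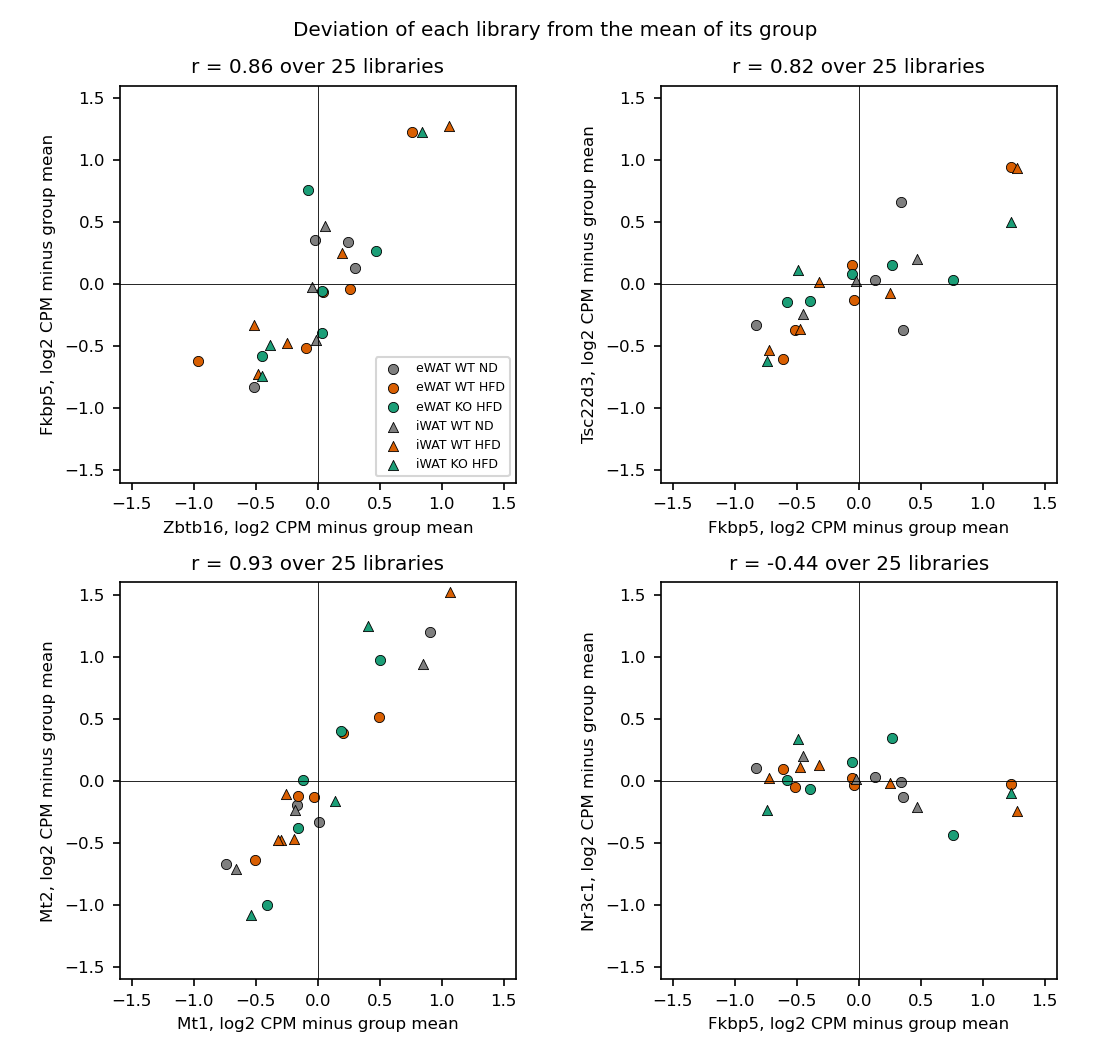
Deviation of log2 CPM from the mean of its group in each of the 25 libraries for 4 pairs of genes; circles are eWAT, triangles iWAT, grey WT ND, orange WT HFD and green KO HFD. The points of *Zbtb16* with *Fkbp5* (r = 0.86), *Fkbp5* with *Tsc22d3* (r = 0.82) and *Mt1* with *Mt2* (r = 0.93) rise along the diagonal, and those of *Nr3c1* against *Fkbp5* (r = -0.44) stay near the horizontal line.

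Among 15034 genes, the 5 closest to *Zbtb16* in log2 CPM over all libraries were *D230025D16Rik* (r = 0.95), *Rad21* (0.94), *Prrc2a* (0.93), *Map3k6* (0.92) and *Ranbp9* (0.92), with *Fkbp5* at rank 29 (0.89). Once group means were removed, the order was *Tmem87b* (0.89), *Hipk1* (0.86), *Fkbp5* (0.86), *Map3k6* (0.85) and *Aff1* (0.82), with *Tsc22d3* at rank 8 (0.80). For *Fkbp5* after removal of group means the closest genes were *Zbtb16* (0.86), *Tsc22d3* (0.82), *Aff1* (0.82), *Hipk1* (0.81) and *Doc2b* (0.80). *Nr3c1* ranked 14165 in that list.

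Of 28 other genes known as glucocorticoid targets, 16 fell and 4 rose with HFD in eWAT, where 26.9% of all genes were called lower and 24.8% higher (median log2 fold change -0.64, against -0.04 over all genes). With sequencing series as a term, 13 of the 16 and all 4 kept their call. This comparison is the one that chose *Zbtb16*, and the list was written with earlier results of these data known. The counts and adjusted p are therefore given as a description, here and for the other lists with HFD in eWAT. The lowest adjusted p among those that fell were for *Klf15*, a Krüppel-like factor of fasting metabolism (-1.81 ± 0.27, adjusted p = 0.00055), *Sult1a1*, a sulfotransferase (-0.98 ± 0.20, 0.0023), and *Hif3a*, a hypoxia-inducible factor subunit (-2.87 ± 0.60, 0.0026). Among those that rose they were for *Gadd45a*, a stress response gene (1.36 ± 0.26, 0.0018), *Tat*, a tyrosine aminotransferase of liver (4.08 ± 1.17, 0.014), and *Rasd1*, a small GTPase (2.05 ± 0.60, 0.016). The summed level of 7 macrophage markers ran from 438 to 801 CPM in ND-fed and from 1227 to 3890 CPM in HFD-fed WT eWAT, with all 7 higher, and 4 of 8 adipocyte markers were lower, so these markers moved with the target genes; their part was not tested.

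In iWAT 9 of the 28 fell and 5 rose with HFD, where 24.2% of all genes were called lower and 25.9% higher, so these counts lay close to the background (median -0.28, against 0.00 over all genes). With sequencing series as a term 5 of the 9 and 4 of the 5 kept their call, and 5 were called lower without ND library 3 and 3 higher without ND library 2. Those that fell included *Klf15* (-1.25 ± 0.23, adjusted p = 0.0015), *Sesn1*, a stress-induced regulator of growth signalling (-0.70 ± 0.17, 0.0075), and *Foxo1*, a factor of fasting gene expression (-0.59 ± 0.15, 0.0088, but 0.105 with series as a term). Those that rose included *Tat* (8.50 ± 1.15, 0.00034), *Gadd45a* (1.03 ± 0.23, 0.0049) and *Angptl4*, an inhibitor of lipoprotein lipase (0.72 ± 0.18, 0.0094). *Tat* had 0 to 3 reads in the ND-fed libraries and 86 to 591 in the HFD-fed WT ones, and it moved with the liver list. Other markers also moved with HFD in iWAT: 6 of 7 macrophage, 6 of 6 fibroblast and 5 of 5 endothelial markers were higher, as were 4 of 8 adipocyte markers (2 were lower), and 7 of 8 T cell and 4 of 4 B cell markers were lower. The summed T cell markers ran from 266 to 426 CPM in ND-fed and from 7.11 to 75.7 CPM in HFD-fed WT iWAT, and their part was not tested.

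Between genotypes in eWAT 2 of the 28 rose and none fell, where 9.13% of all genes were called higher and 10.8% lower. They were *Klf15* (1.25 ± 0.26, adjusted p = 0.014), called in all 23 alternatives, and *Lpin1*, a phosphatidate phosphatase (0.73 ± 0.23, 0.056), called in 17 of 23 (adjusted p 0.0132 to 0.132). Macrophage markers were lower in KO (7 of 7, 401 to 1278 CPM) and 5 of 8 adipocyte markers were higher, and their part was not tested. In iWAT the genotype comparison called none of the 28.

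**Figure D4:**
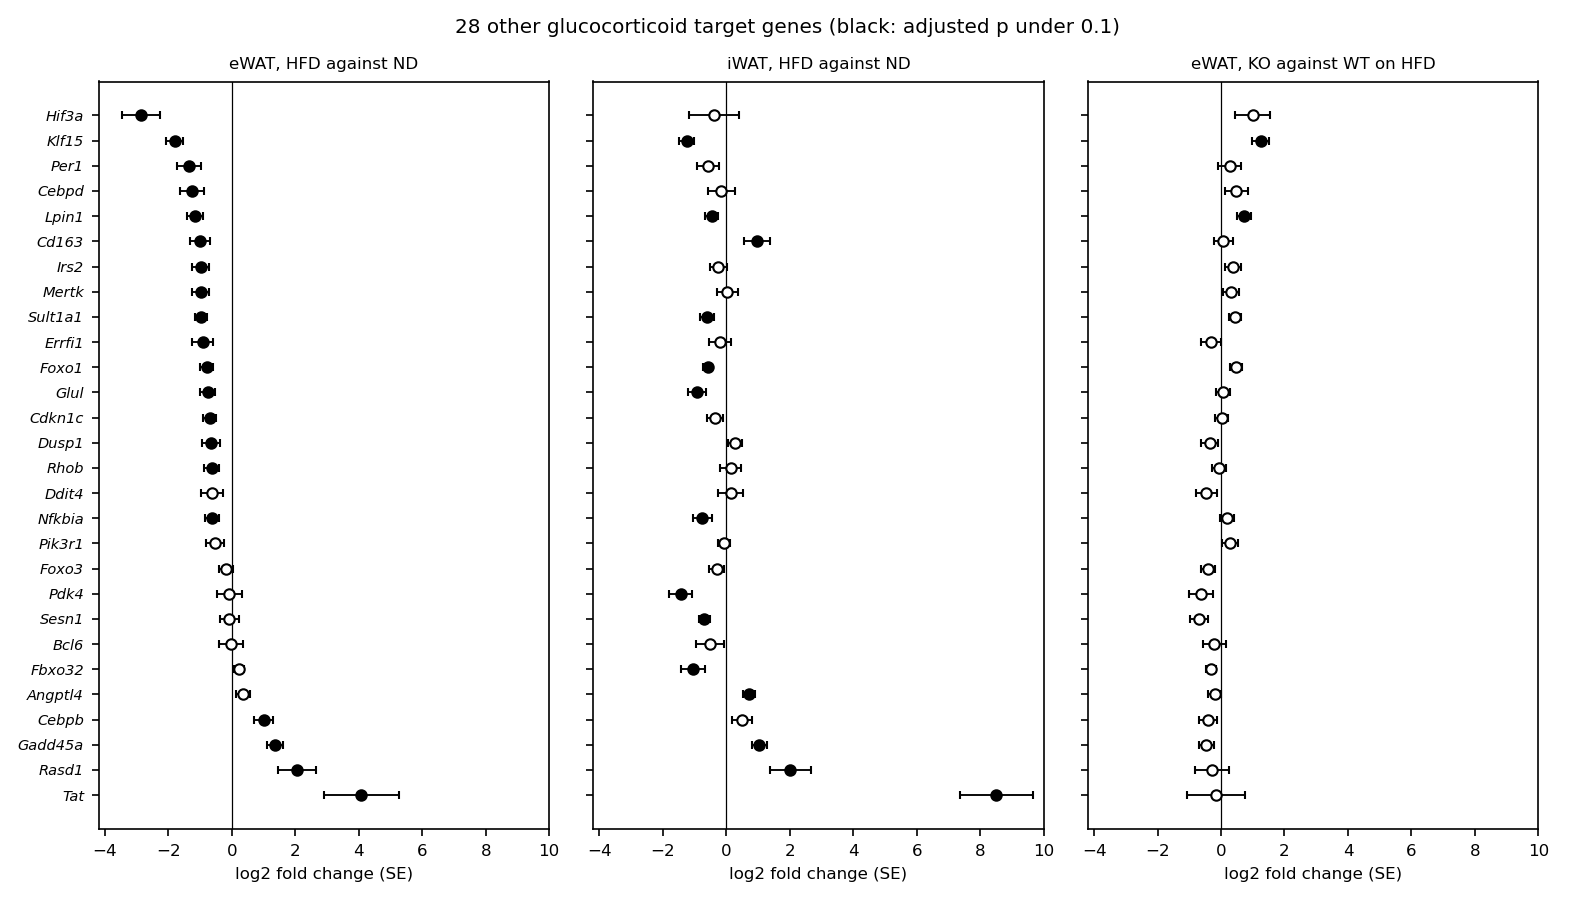
Fitted log2 fold change (x axis) with its SE as the bar for 28 other glucocorticoid target genes, ordered by their change with HFD in eWAT; black points passed an adjusted p under 0.1. *Klf15* is black in all 3 panels (-1.81, -1.25 and 1.25), and *Tat*, in the bottom row, is the point farthest to the right in both diet panels.

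The rest of the hormone pathway moved less evenly. Of 8 genes of hormone supply and transport, 5 were tested in eWAT, where *H6pd*, which supplies the cofactor of the *Hsd11b1* enzyme, fell with HFD by 0.61 ± 0.19 (adjusted p = 0.020) and *Abcb1a*, a steroid exporter, by 0.65 ± 0.22 (0.027). Of all genes in eWAT, 26.9% were called lower with HFD. With sequencing series as a term *H6pd* lost its call (adjusted p = 0.159). In iWAT 7 were tested and 5 rose with HFD, against 25.9% of all genes, among them the corticotropin receptor gene *Mc2r* (1.05 ± 0.14, adjusted p = 0.00028), the mineralocorticoid receptor gene *Nr3c2* (0.79 ± 0.27, 0.037), *Abcb1a* (0.65 ± 0.24, 0.050) and *Hsd11b2*, which inactivates the hormone (1.29 ± 0.58, 0.098). The remaining one was *Serpina6*, the gene of the plasma corticosteroid carrier made in liver, with 0 reads in all ND-fed libraries and 7 to 211 in the HFD-fed WT iWAT libraries. *Hsd11b2* was called in 6 of 18 alternatives only, and without ND library 3 the count fell to 2. The genotype called none of these genes in either depot.

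Of 9 receptor chaperones, all tested, only *Dnaja1*, an HSP40 co-chaperone, was called in eWAT, lower with HFD (-0.63 ± 0.17, adjusted p = 0.0088) and higher in KO (0.43 ± 0.16, 0.087, called in 8 of 23 alternatives). Of all genes in eWAT, 26.9% were called lower with HFD and 9.13% higher in KO. In iWAT only *Hsp90ab1*, which encodes an HSP90, was called, lower with HFD (-0.53 ± 0.14, 0.011), where 24.2% of all genes were called lower. Of 8 genes of metal and zinc handling, 7 were tested, and in KO against WT eWAT 3 fell, against 10.8% of all genes: *Slc30a1*, the zinc exporter that MTF1 induces (-0.46 ± 0.11, adjusted p = 0.023), the importer *Slc39a10* (-0.82 ± 0.23, 0.036) and *Mt3* (-3.09 ± 0.93, 0.047). *Mt3* had 0.15 to 14.8 CPM in ND-fed, 0.62 to 3.24 CPM in HFD-fed WT and 0 to 0.35 CPM in KO eWAT, and its genotype call was lost without WT library 1 or KO library 3. With HFD in eWAT 5 of the 7 fell, against 26.9% of all genes: *Slc30a1* (-0.35 ± 0.12, 0.031), *Mt3* (-2.53 ± 0.89, 0.035), *Slc30a4* (-0.43 ± 0.12, 0.014) and the importers *Slc39a8* (-0.93 ± 0.30, 0.023) and *Slc39a14* (-0.48 ± 0.20, 0.064). *Slc39a10* rose (0.82 ± 0.25, 0.017). With sequencing series as a term none of these 5 kept its call (adjusted p 0.125 to 0.222), and *Slc39a10* did (0.039). In iWAT *Slc39a8* (1.09 ± 0.25, 0.0056) and *Slc30a4* (0.31 ± 0.14, 0.094) rose with HFD, 2 of the 7 tested against 25.9% of all genes. *Slc30a4* was called in 3 of 19 alternatives.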

How the data were processed

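Per the methods of the study, directional mRNA libraries were trimmed and filtered and the reads were aligned to GRCm38 with STAR; the counting program and its use of strand were not given in the sources used here. For each library the authors deposited raw read counts per gene, the cDNA length of each gene and FPKM values relative to the reads on genes and to the reads of all classes. Counts of the 25 libraries were joined to gene symbols of GENCODE vM21. Reads in no gene (6.41 to 11.9% of the column total) and in overlapping genes (1.52 to 2.07%) stayed out of library sizes. In R 4.3.3 with edgeR 4.0.16, genes averaging 1 CPM or more in the libraries of a fit were kept, normalized by TMM and fitted by the quasi-likelihood method, with 3 groups per depot, or 6 groups over 25 libraries for depots and for the interaction. P-values were adjusted by Benjamini-Hochberg over every gene of a fit, and genes were called at an adjusted p under 0.1. The code was tested on simulated data. DESeq2 1.42.0, other filters and scalings, fits with the sequencing series or a replicate block, and fits without single libraries were the alternatives. Log2 CPM used a prior count of 2. FPKM was used only to compare levels between genes, and its length term and multimapped reads limit that use. P-values within a depot measure the spread between libraries, with 1 library per mouse. Those between depots and for the interaction treat all 25 libraries as separate mice, although some may come from the same mouse. P-values with diet do not separate diet from series unless series was a term.

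The members and gene lists were chosen with earlier results of these data known. Genes named beyond the 9 are called genes of the hormone axis, chaperone and metal lists, the 3 called target genes of lowest adjusted p per comparison and direction, and the 5 genes most like *Zbtb16* or *Fkbp5*. The liver list was added after the data were seen. No ND-fed KO mice were analysed here.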

Additional observations from a re-analysis of the deposited data

Results flagged for a closer look

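In groups of 4 or 5 libraries, 36 sets of values (9 genes in 4 groups) were checked for 1 library far from the others, and 5 had a gap above Dixon's critical value, where about 1 in 20, or 1.8, would be flagged by chance if values were normal and independent. HFD-fed WT library 1 was the far one in 4 of the 5. In eWAT it had 167.9 CPM of *Fkbp5*, with 81% of the range of its group between it and the next library. In iWAT it had 418.2 CPM of *Tsc22d3* (74% of the range), 235 CPM of *Mt1* (94%) and 233.2 CPM of *Mt2* (90.2%). The other was ND-fed eWAT library 3, with 640.6 CPM of *Mt2* (85.3%). The genes vary together within groups, so these are not separate events. No difference between the depots in the effect of genotype passed.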

How the results depend on the processing

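In eWAT the genotype called 2 of 8 genes, and this count was 1 at an adjusted p under 0.05, 1 with no filter on low counts, 4 with DESeq2 and 4 within the first sequencing series; without single libraries it ran from 0 (HFD-fed WT library 4 or KO library 3 left out) to 4 (KO library 5 left out). The 2 genes called with diet in iWAT became 1 at an adjusted p under 0.05, 1 with sequencing series as a term and 5 when only the ND-fed and HFD-fed WT libraries were fitted, and ran from 1 (ND library 3 left out) to 5 (HFD-fed WT library 1 left out; 4 without KO library 3). The counts of 0 for genotype in iWAT, for depot in KO mice and for the genotype difference between depots stayed at 0 in all alternatives run. Of the 28 target genes, 2 were called higher between eWAT genotypes, 4 with DESeq2, 5 within the first series and 1 to 4 without single libraries. The cause of these shifts was not tested. Series and diet can be separated only through 4 HFD-fed libraries, library 5 of the WT mice in each depot, eWAT KO library 5 and iWAT KO library 3.

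Same-numbered libraries deviated together in only part of the pairs. The correlation of deviations was -0.30 to 0.31 within depots, over 0.1 in 12 of 22 pairs. Between depots it was -0.09 to 0.49, over 0.1 in 5 of 11. The eWAT libraries ND 1, 2 and 3, HFD-fed WT 1 and 4 and KO 1 and 2 went best with their own number in iWAT. HFD-fed WT libraries 2, 3 and 5 and KO library 3 did not. The numbers were not taken to pair the mice, and whether mice are shared between depots stays unknown. With the replicate block, diet in iWAT called 1 gene (*Hsd11b1* was lost, adjusted p = 0.123) and eWAT genotype called 3 (*Hsd11b1*, *Mt1* and *Mt2*; *Nr3c1* had an adjusted p of 0.115), and 4 instead of 9 of the 28 target genes were called lower with diet in iWAT. The signs of values that passed no test turned with the block for *Tsc22d3* (0.032) and *Mt1* (0.041) with diet in iWAT, for *Fkbp5* (-0.14), *Tsc22d3* (-0.27) and *Mt1* (-0.027) between iWAT genotypes, and for *Fkbp5* (0.046), *Tsc22d3* (0.25) and *Sgk1* (0.077) in the difference between depots.

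Other sign changes were also of values that passed no test. Within the first series they were *Fkbp5* (-0.14), *Tsc22d3* (-0.086) and *Klf9* (-0.029) between eWAT genotypes, *Zbtb16* (-0.16), *Fkbp5* (-0.60), *Tsc22d3* (-0.33) and *Mt1* (-0.077) between iWAT genotypes, *Zbtb16* (0.16) and *Fkbp5* (0.16) between depots in KO, and *Fkbp5* (0.44) and *Tsc22d3* (0.23) in the genotype difference between depots. With series as a term they were *Sgk1* with diet (-0.16) and *Tsc22d3* between genotypes (-0.018) in iWAT, and with no filter on low counts *Tsc22d3* (-0.0052) and *Klf9* (-0.015) between eWAT genotypes.

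Without single libraries, values that turned ran, between eWAT genotypes, from -0.015 to 0.67 for *Fkbp5*, -0.11 to 0.33 for *Tsc22d3* and -0.14 to 0.14 for *Klf9*; with diet in iWAT, from -0.25 to 0.25 for *Sgk1*, -0.56 to 0.35 for *Mt1* and -0.48 to 0.74 for *Mt2*; between iWAT genotypes, from -0.074 to 0.83 for *Zbtb16*, -0.47 to 0.88 for *Fkbp5*, -0.24 to 0.33 for *Tsc22d3*, -0.058 to 0.23 for *Nr3c1*, -0.42 to 0.074 for *Sgk1* and -1.01 to 0.47 for *Mt2*; between depots in KO, from -0.63 to 0.15 for *Zbtb16*, -0.81 to 0.41 for *Fkbp5*, -0.15 to 0.37 for *Tsc22d3* and -0.15 to 0.14 for *Nr3c1*; and, in the difference between depots, from -0.66 to 0.69 for *Fkbp5*, -0.32 to 0.31 for *Tsc22d3*, -0.43 to 0.23 for *Sgk1* and -1.42 to 0.060 for *Mt2*.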

Other observations

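Further gene groups (immediate early and clock genes) outside the hormone pathway were read beside the 9 genes, because both follow handling or time of day in many tissues. Of 9 immediate early genes, which respond within minutes to many stimuli, 6 rose with HFD in eWAT (24.8% of all genes did) and 4 fell in KO against WT eWAT (10.8% of all genes did). With sequencing series as a term 4 of the 6 and all 4 kept their call. *Fos* rose by 2.43 ± 0.57 on the log2 scale with HFD (SE, edgeR adjusted p = 0.0048) and fell by 2.06 ± 0.52 in KO (0.023), and *Atf3* rose by 3.93 ± 0.72 (0.0013) and fell by 2.98 ± 0.63 (0.014). Their summed level was between 62.9 and 104 CPM in ND-fed, 161 and 407 CPM in HFD-fed WT, and 67.9 and 127 CPM in KO eWAT. The summed level of 7 macrophage markers moved the same way. It was between 438 and 801, 1227 and 3890, and 401 and 1278 CPM in those groups, and its part was not tested. In iWAT 4 rose and 1 fell with HFD (25.9% and 24.2% of all genes), of which only *Fos* kept its call with series as a term, and none was called between genotypes.

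Of 14 clock genes, 3 fell and 1 rose with HFD in eWAT, no larger a share than among all genes (26.9% and 24.8%), with *Nr1d1*, a repressor of the clock, lower by 1.45 ± 0.34 (adjusted p = 0.0048). The only clock gene called between genotypes in eWAT was *Npas2*, which fell by 2.50 ± 0.56 (0.016), and the same gene was the only one called with HFD in iWAT, where it fell by 2.65 ± 1.12 (0.079, called in 12 of 18 alternatives). *Npas2* also fell with HFD in eWAT (-1.69 ± 0.55, edgeR adjusted p = 0.025). Its levels were low, with 4.31 to 8.21 CPM in ND-fed, 0.39 to 4.73 in HFD-fed WT and 0.19 to 0.53 in KO eWAT. In iWAT it had 2.63 to 9.72 CPM in ND-fed and 0 to 3.41 in HFD-fed WT libraries. Genes named here were chosen after their values were seen. How far these groups and the 9 genes share a cause was not tested.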
